A study of Mus musculus with 14 samples.

Results

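The plasma proteins that visceral endoderm secretes were examined through open chromatin near 10 genes, namely Afp, Alb, Ttr, Rbp4, Trf, Apoa1, Apoa4, Apob, Apoe and Apom. Peaks of 14 ATAC-seq libraries were merged into 124598 regions of the mouse genome (build GRCm38), and a region belonged to a gene when that gene's transcription start site (TSS) was the nearest protein-coding one and lay within 50 kb. This rule gave 33 regions. Ttr and Apoa1 had 9 regions each, Apoe had 5, Alb, Trf, Apoa4 and Apob had 2 each, Afp and Rbp4 had 1 each, and Apom had 0.

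Visceral endoderm is the epithelium that primitive endoderm (PrE) gives rise to around the early post-implantation embryo. Before the embryo has a working liver it makes many of the proteins that the liver later pours into plasma, among them albumin-type proteins, carriers of retinol, thyroid hormone and iron, and the apolipoproteins that coat lipid particles. In liver, genes of this kind are known targets of the HNF4, HNF1, FOXA and GATA families of transcription factors, which bind promoters and distant enhancers.

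All libraries came from KH2 mouse embryonic stem (ES) cells, with strain given as C57BL/6, that carried the TRE:GATA6-DSREd2 transgene, in which a tetracycline-responsive element drives GATA6 when doxycycline (Dox) is present. The 0 h cells were kept in 2i medium with LIF and received no Dox. The 2, 4 and 8 h cells were in serum medium with LIF and Dox at 1 µg/mL for those times, and the 16, 24 and 48 h cells had Dox for 12 h and then serum medium without it. Each time point had 2 libraries of 50000 cells. The study's methods describe 1 transgenic line with a single transgene copy. The switch from 2i to serum medium came with induction, so that medium and GATA6 cannot be told apart in any comparison with 0 h. Nothing in the labels says that the 2 libraries of a time point came from separate cultures. The p-values below come from permutations that treat each of the 14 libraries as independent. They speak only for these libraries, and would be too small if the 2 libraries of a time point shared a culture.

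The libraries held 55588 to 65073 peaks each. The deposited lists give no read counts, so that the depth behind a peak is unknown, and a region without a peak was not called, which does not show that it was closed. In these bulk libraries a region open in fewer cells and a region less open in each cell cannot be told apart. Regions near PrE marker genes (Gata6, Gata4, Sox17, Sox7, Pdgfra, Foxa2 and Dab2) were gained at 48 h in 37 of 66 cases (56.1%) and lost in 5. Those near ES or epiblast marker genes (Nanog, Sox2, Esrrb, Klf4, Pou5f1 and Tfcp2l1) were gained in 18 of 69 (26.1%) and lost in 14 (20.3%). Over all regions 19.5% were gained and 22.3% lost, so the ES or epiblast genes showed no excess of losses. Gained here means called in both 48 h libraries and in neither 0 h library, lost means the reverse, shared means called in all 4, and the share is of the regions called in at least 1 of those 4 libraries.

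Open chromatin near the plasma protein genes was called most often at 48 h. At 48 h, 10 of the 29 regions that entered the comparison were gained (34.5%), where 19.5% of all regions were, and 2 were lost (6.9%), where 22.3% of all regions were. The 4 shared regions made 13.8%, against 25.1% of all regions. The gains were spread over 5 of the 10 genes, with 3 at Ttr, 2 each at Alb, Apoa1 and Apoa4, and 1 at Apoe. Without Ttr, 7 of 20 regions were gained (35.0%) and 1 was lost. Counted within 10 kb of the TSS, 4 regions were gained and 0 lost. With 0 h replicate 1 left out, 4 regions were lost in place of 2. With 2 libraries against 2, no exact permutation test (two-sided) can give a p below 0.333, and these shares are descriptions.

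Windows of 200 bp at the centres of 5 gained regions show sequence from chromatin gained by 48 h near the albumin and apolipoprotein genes. They are the gained regions of Alb, Apoa1 and Apoa4 whose windows touch no untranslated sequence, and each is read 5′ to 3′ on the + strand of GRCm38. Capitals mark matches, on either strand, to 4 short motifs: GATA with A or T before it and A or G after it (GATA factors), GTTAAT (HNF1), CAAAGTCCA or CAAAGGTCA (HNF4), and TGTTTAC or TGTTTGC (FOXA).
Alb-1 (chr5:90431186-90431385): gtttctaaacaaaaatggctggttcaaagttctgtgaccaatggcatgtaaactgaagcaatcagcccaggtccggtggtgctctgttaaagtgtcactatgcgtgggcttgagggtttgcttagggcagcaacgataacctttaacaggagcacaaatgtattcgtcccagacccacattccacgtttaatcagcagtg
Alb-2 (chr5:90442317-90442516): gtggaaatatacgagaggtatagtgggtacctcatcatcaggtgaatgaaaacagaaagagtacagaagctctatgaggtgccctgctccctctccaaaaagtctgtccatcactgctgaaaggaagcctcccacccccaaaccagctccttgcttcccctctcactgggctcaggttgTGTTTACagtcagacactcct
Apoa1-7 (chr9:46215506-46215705): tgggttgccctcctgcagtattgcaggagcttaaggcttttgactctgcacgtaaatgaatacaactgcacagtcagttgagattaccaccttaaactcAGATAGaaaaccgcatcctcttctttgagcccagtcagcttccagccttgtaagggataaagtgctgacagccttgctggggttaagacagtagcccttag
Apoa4-1 (chr9:46241967-46242166): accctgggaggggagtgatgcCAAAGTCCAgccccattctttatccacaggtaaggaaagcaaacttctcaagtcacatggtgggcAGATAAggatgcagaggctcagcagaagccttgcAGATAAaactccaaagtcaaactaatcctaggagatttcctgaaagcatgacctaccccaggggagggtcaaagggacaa
Apoa4-2 (chr9:46246884-46247083): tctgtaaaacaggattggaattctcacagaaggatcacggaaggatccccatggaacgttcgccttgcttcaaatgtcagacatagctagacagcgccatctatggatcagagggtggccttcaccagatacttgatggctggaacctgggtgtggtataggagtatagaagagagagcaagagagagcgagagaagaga

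The Apoa4-1 window held the only HNF4 match among the 33 windows together with 2 GATA matches. The Alb-2 window held 1 FOXA match and the Apoa1-7 window 1 GATA match. Alb-1 and Apoa4-2 had no match in the window, though over its whole 584 bp Alb-1 held 1 GATA and 2 FOXA matches. A match is a run of letters and does not show that a factor was bound.

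For a trend over all 14 libraries, the ranks of the times at which a region was called were permuted over the libraries (exact, two-sided), and p-values were adjusted by Benjamini-Hochberg over all 79559 regions with calls in 2 to 12 libraries. Of these, 12.1% rose and 12.3% fell at an adjusted p of 0.05. Among the plasma protein regions 20 could be tested, 5 rose (25.0%) and 1 fell (5.0%). The regions that rose were Ttr-4, Ttr-5, Ttr-7, Apoa1-4 and Apoa4-2, and Ttr-9 fell. At an unadjusted p under 0.05 the counts were 10 and 1, but the share of all regions at that threshold was not counted, so nothing is read from them. Without the 0 h libraries, which also differed in medium, Ttr-4 alone rose, against 7.69% of all regions, and Ttr-9 still fell. The other 13 regions were left out because 9 had been called in a single library and 4 in 13 or 14 libraries.

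The number of plasma protein regions called was 8 and 9 in the 0 h libraries, 8 and 9 at 2 h, 12 and 15 at 4 h, 10 and 12 at 8 h, 11 and 10 at 16 h, 12 and 11 at 24 h, and 20 and 19 at 48 h. Both 48 h libraries thus held more of them than any of the other 12 libraries. The set itself favours this, because a region enters it through a call in any library. Alb-1, Alb-2, Ttr-3, Ttr-6, Apoa1-3, Apoa1-7, Apoa4-1 and Apoe-1 entered through 48 h libraries alone. Ttr-2, Ttr-8 and Apoa1-8 entered through 0 h alone, and Apoa1-1 and Trf-2 through 2 h alone. As a mean, 8.5 ± 0.707 regions (SD, n = 2) were called at 0 h and 19.5 ± 0.707 at 48 h. Expressed as a share of the 33 regions, the mean went from 25.8% at 0 h to 59.1% at 48 h, while the share of all 124598 regions called was 44.6% at 0 h and 42.7% at 48 h.

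**Figure D1:**
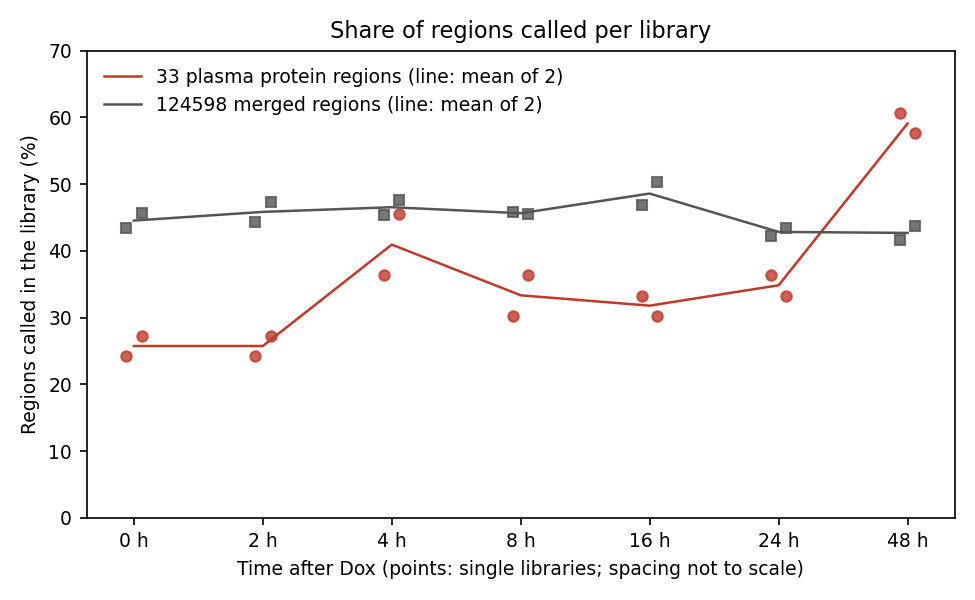
Share of regions called in each library (%, vertical axis) at each time after Dox (h, horizontal axis, spacing not to scale), with points for single libraries and lines for the mean of 2. The plasma protein regions (red) lie below the share of all merged regions (grey) in each library up to 24 h and above it in both 48 h libraries, at 60.6% and 57.6%.

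The gain was not stepwise. At 2 h, 0 of 14 regions were gained against 0 h (13% of all regions). At 4 h, 5 of 19 were gained (26.3%, against 14.8% of all regions), namely Ttr-5, Ttr-7, Rbp4-1, Trf-1 and Apoe-4. At 8 h only 2 of 17 were gained (11.8%, against 15.8%), Ttr-5 and Afp-1. At 16 h the count was 5 of 19 (26.3%, against 18.2%), with Apoa4-2 and Apoe-5 joining Ttr-5, Ttr-7 and Apoe-4, and at 24 h it was again 5 of 19 (26.3%, against 16.4%), with Ttr-4 and Apoa1-5 beside Ttr-5, Ttr-7 and Apoa4-2. Ttr-5 was thus the single region gained at each time from 4 h on. With the 50000 highest-scored peaks per library, gains were 3 at 4 h, 1 at 8 h and 2 at 24 h. These comparisons share the 0 h libraries.

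**Figure D2:**
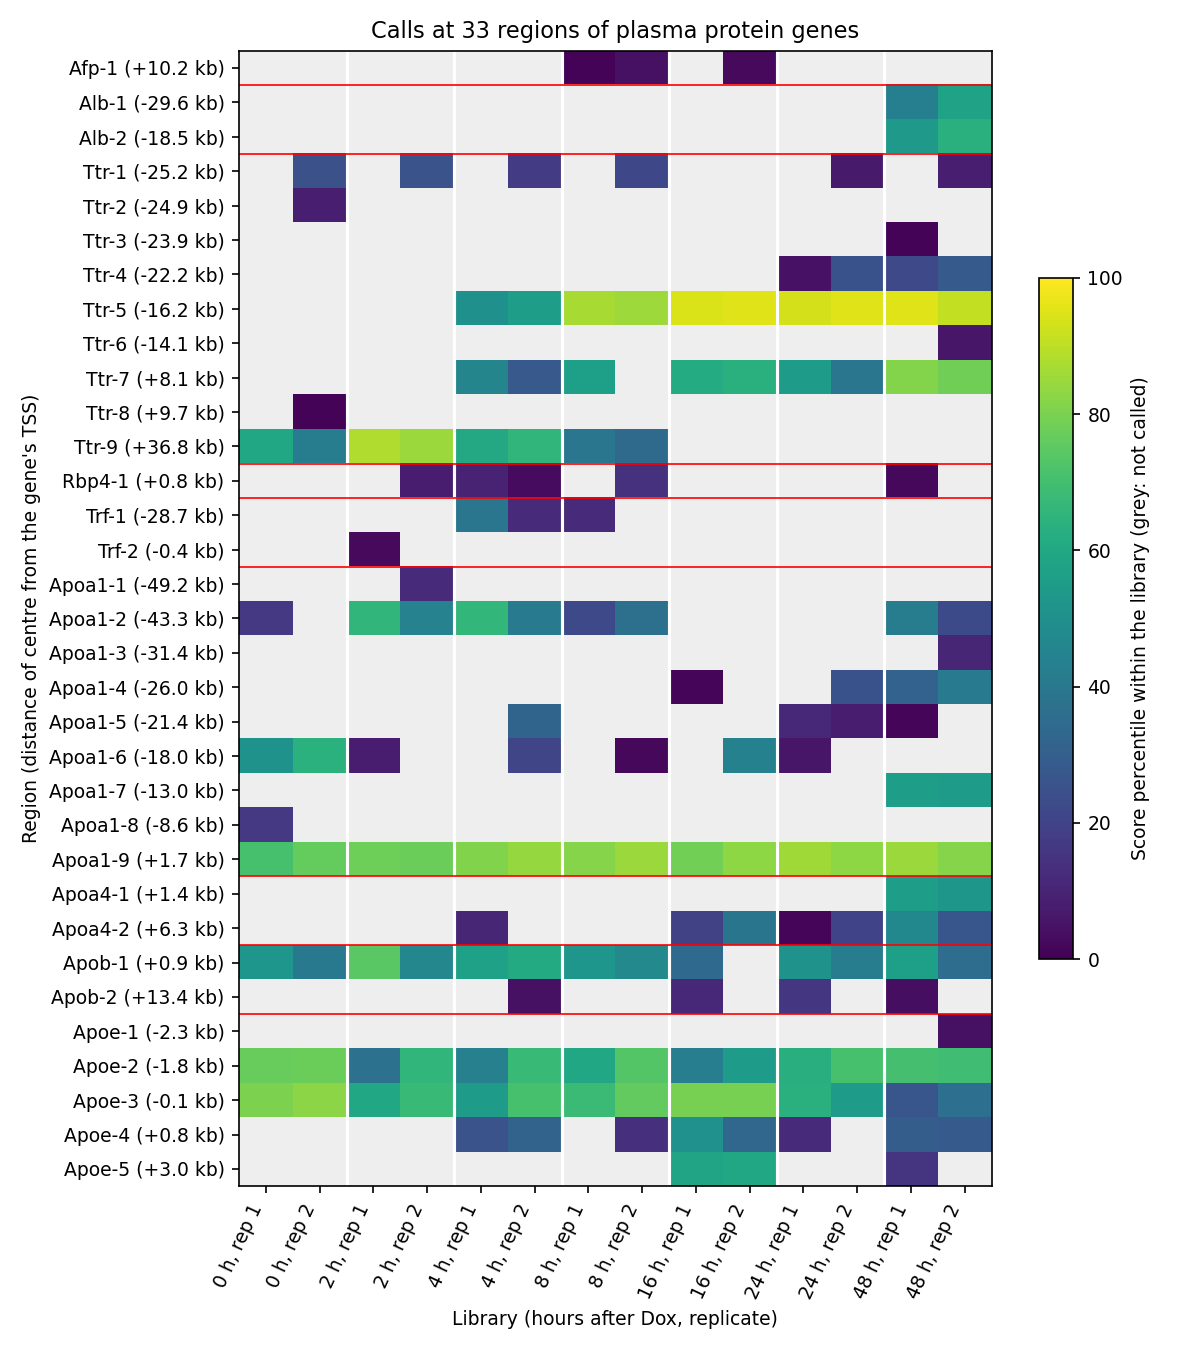
Calls at the 33 regions (rows, with the distance of the region's centre from the TSS in kb) in the 14 libraries (columns), coloured by the percentile of the peak's score within its library and grey where no peak was called. Ttr-5 is coloured in all libraries from 4 h on, and 4 regions of Alb, Apoa1 and Apoa4 are coloured in the 48 h libraries alone.

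The peak score in the lists has no stated scale, and it is given below only as a percentile among the peaks of the same library, where 100 is the highest score. It orders peaks within a library and is no measure of a difference between libraries.

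Alb encodes albumin, the main carrier protein of plasma, and lies at chr5:90460897-90476602 (ENSMUSG00000029368, + strand). Both of its regions were intergenic and upstream of the gene. Alb-1 (chr5:90430994-90431577) had its centre 29612 bp from the TSS and Alb-2 (chr5:90442112-90442720) 18481 bp. Neither was called in any of the 12 libraries from 0 to 24 h, and both were called in the 2 libraries at 48 h. Alb-1 stood at percentiles 43.3 and 57.6 there, and Alb-2 at 53.7 and 63.4, near the middle of each library's peaks. No peak covered the Alb TSS in any library.

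A region called in both 48 h libraries and nowhere else has a p of 0.022 in the exact permutation test, which became 0.0541 after Benjamini-Hochberg adjustment. This pattern was found in 4257 of all regions and in 4 plasma protein regions, Alb-1, Alb-2, Apoa1-7 and Apoa4-1. None of the 4 passed. Since 0.022 is the smallest p that 2 calls can give in this test, no region called in only 2 libraries passed at this adjustment. The adjusted p also depends on the other regions tested. With the 50000 highest-scored peaks per library it was 0.0477 for each of the 4 (exact permutation test), which passed there. With 0 h replicate 1 or 0 h replicate 2 left out, any region of this pattern gets a smaller p by construction. The opposite pattern, both 0 h libraries and nowhere else, can then no longer occur. Passing under that alternative therefore says nothing more about these 4.

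Afp encodes alpha-fetoprotein, the albumin-family protein that is abundant in fetal plasma, and lies beside Alb at chr5:90490737-90508907 (ENSMUSG00000054932, + strand). Its 1 region, Afp-1 (chr5:90500822-90501039), was in an intron 10193 bp downstream of the TSS. It was called in both 8 h libraries at percentiles 1.13 and 4.55 and in 16 h replicate 2 at 2.71, among the lowest-scored peaks of those libraries, and in none of the other 11. It did not pass the trend test (adjusted p = 0.941, exact permutation test). A further region inside the gene, near its end, had the TSS of Afm as its nearest and was called in 1 library, at 0 h. Neither Afp nor its TSS had a peak at 24 or 48 h.

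Ttr encodes transthyretin, which carries thyroid hormone and, through retinol-binding protein, retinol. The gene lies at chr18:20665280-20674321 (ENSMUSG00000061808, + strand), and its regions changed more than those of any other gene here, with 3 that rose and 1 that fell among 5 tested. No peak covered its TSS.

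Ttr-5 (chr18:20648466-20649686), centred 16204 bp upstream of the TSS in the noncoding gene Gm16090, was the widest of the 33 regions at 1221 bp. It was called in none of the 4 libraries at 0 and 2 h and in all 10 from 4 h on. Its percentiles were 50.3 and 56.0 at 4 h, 86.8 and 85.2 at 8 h, 94.4 and 95.3 at 16 h, 93.7 and 95.3 at 24 h, and 95.3 and 90.7 at 48 h. From 8 h on the peak thus ranked above all the other plasma protein regions of its library. The trend had an adjusted p of 0.013 (exact permutation test). The whole region held 7 GATA, 2 HNF1 and 1 FOXA matches, the most GATA matches of the 33.

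Ttr-7 (chr18:20673098-20673729) overlapped an exon of Ttr 8133 bp downstream of the TSS, and also appeared at 4 h. It stood at percentiles 45.6 and 28.1 at 4 h, 56.3 in 8 h replicate 1, 61.4 and 63.6 at 16 h, 55.4 and 39.2 at 24 h, and 81.3 and 78.3 at 48 h, and was not called at 0 h, at 2 h or in 8 h replicate 2. Its adjusted p was 0.0338 (exact permutation test), and it was 0.0563 or 0.0571 when a 2 h library was left out. Ttr-4 (chr18:20642944-20643177), 22220 bp upstream, was called at 24 h (percentiles 5.01 and 25.3) and 48 h (21.9 and 28.4) and in no earlier library (adjusted p = 0.013, exact permutation test).

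Ttr-9 (chr18:20701713-20702384) went the other way. It lay 36768 bp downstream of the Ttr TSS in an intron of B4galt6, which encodes a glycosyltransferase and whose own TSS was 44356 bp away. Its percentiles were 60.0 and 42.3 at 0 h, 88.2 and 85.1 at 2 h, 60.2 and 65.9 at 4 h, and 39.3 and 34.5 at 8 h, and it was called in none of the 6 libraries from 16 h on (adjusted p = 0.013, exact permutation test). Which of these genes the region serves was not measured.

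The other 5 Ttr regions were called in few libraries. Ttr-1, 25156 bp upstream, was called in 6 libraries, each of them a replicate 2, at 0, 2, 4, 8, 24 and 48 h, with percentiles of 7.36 to 25.7. Ttr-2, Ttr-3, Ttr-6 and Ttr-8 were called in 1 library each, at percentiles of 0.835 to 8.3.

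Rbp4 encodes the retinol-binding protein that travels with transthyretin. Its 1 region, Rbp4-1 (chr19:38123916-38125059), began inside the gene (chr19:38116629-38125281, ENSMUSG00000024990, − strand), with its centre 794 bp downstream of the TSS, and did not reach the TSS. It was called in both 4 h libraries at percentiles 10.1 and 2.89, in 2 h replicate 2 at 7.67, in 8 h replicate 2 at 14.2 and in 48 h replicate 1 at 2.07. These were low-ranked peaks at scattered times, and the trend did not pass (adjusted p = 0.941, exact permutation test).

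Trf encodes transferrin, the iron carrier of plasma (chr9:103204001-103230444, ENSMUSG00000032554, − strand). Trf-1 (chr9:103258864-103259459), 28717 bp upstream and overlapping an exon of 1300017J02Rik, was called at 4 h (percentiles 39.4 and 12.0) and in 8 h replicate 1 (11.9) and nowhere else (adjusted p = 0.77, exact permutation test). Trf-2 (chr9:103230677-103231007), 398 bp upstream of the TSS, was called in 2 h replicate 1 alone, at percentile 2.65. Trf thus had no region at 16, 24 or 48 h. A pair of further regions within the gene body were called in all 14 libraries, but the nearest TSSs to them were those of Srprb and Gm20425.

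Apoa1 encodes the main protein of high-density lipoprotein, and Apoa4 another apolipoprotein of lipid particles. They lie in 1 cluster on chromosome 9, Apoa1 at chr9:46228580-46230466 (ENSMUSG00000032083, + strand) and Apoa4 at chr9:46240696-46243459 (ENSMUSG00000032080, + strand). Apoa1-9 (chr9:46229890-46230607), at the 3′ end of Apoa1 and 1668 bp from its TSS, was called in all 14 libraries at percentiles of 70.9 to 85.6 (median 81.8), so that the cluster held a highly ranked peak before Dox. No peak covered the TSS of Apoa1 or of Apoa4.

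The other 8 Apoa1 regions lay upstream, within Sik3, a kinase gene. Apoa1-7 (chr9:46215342-46215869), 12975 bp from the TSS, was called only at 48 h, at percentiles 55.6 and 54.7. Apoa1-4 (chr9:46202336-46202763), 26031 bp upstream and overlapping an exon of Sik3, was called in 16 h replicate 1 at 1.7, in 24 h replicate 2 at 25.3, and at 48 h at 31.6 and 40.9. Apoa1-4 rose with an adjusted p of 0.0451 (exact permutation test), and lost the call in 8 of the 14 fits that left out 1 library, where its adjusted p was 0.0546 to 0.0724.

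Apoa1-6 (chr9:46210276-46210981), 17952 bp upstream, was lost at 48 h. It stood at percentiles 51.0 and 63.9 at 0 h, was called in 1 of the 2 libraries at each time from 2 to 24 h, and in neither at 48 h (adjusted p = 0.266, exact permutation test). Apoa1-2, 43318 bp upstream, was called in 9 libraries (1 at 0 h, both at 2, 4, 8 and 48 h, none at 16 or 24 h) and showed no trend past the threshold (adjusted p = 0.641, exact permutation test). Apoa1-5 was called in 4 libraries, and Apoa1-1, Apoa1-3 and Apoa1-8 in 1 each.

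Both Apoa4 regions were gained. Apoa4-1 (chr9:46241879-46242253), in an intron of Apoa4 and an exon of the noncoding gene Gm47528, 1370 bp downstream of the TSS, was called only at 48 h, at percentiles 56.0 and 53.1. Apoa4-2 (chr9:46246877-46247089), past the end of the gene and 6287 bp from its TSS, came earlier, with percentiles of 10.7 in 4 h replicate 1, 19.5 and 38.7 at 16 h, 1.52 and 20.1 at 24 h, and 46.5 and 26.7 at 48 h (adjusted p = 0.021, exact permutation test). A neighbouring region at chr9:46237471-46237747, whose nearest TSS is that of Apoc3, was also called in both 48 h libraries and in no other.

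Apob encodes the structural protein of very-low-density and low-density lipoproteins (chr12:7977648-8016835, ENSMUSG00000020609, + strand). Apob-1 (chr12:7978234-7978854), overlapping an exon 896 bp downstream of the TSS, was called in 13 of 14 libraries at percentiles of 34.0 to 74.3 (median 51.0), and was missed in 16 h replicate 2. Apob-2, 13359 bp downstream, was called in 1 library each at 4, 16, 24 and 48 h (adjusted p = 0.328, exact permutation test). Apob thus gained and lost no region, and no peak covered its TSS.

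Apoe encodes an apolipoprotein that many cell types make (chr7:19696109-19699188, ENSMUSG00000002985, − strand), and it was the one gene of the 10 with a peak over its TSS, in all 14 libraries. For comparison, 42.6% of 21951 protein-coding genes had their TSS covered in both 0 h libraries and 46.4% in both 48 h libraries. That peak, Apoe-3 (chr7:19698943-19699604), stood at percentiles 80.2 and 82.8 at 0 h, 60.0 and 67.4 at 2 h, 55.4 and 70.8 at 4 h, 68.2 and 75.9 at 8 h, 79.4 and 79.6 at 16 h, 63.5 and 55.4 at 24 h, and 26.7 and 36.6 at 48 h. Apoe-2 (chr7:19700715-19701325), 1832 bp upstream in Tomm40, was likewise called in all 14, at percentiles of 37.5 to 77.4.

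Within Apoe, Apoe-4 (chr7:19698147-19698664), 783 bp downstream of the TSS, was gained. Its percentiles were 25.6 and 31.8 at 4 h, 13.7 in 8 h replicate 2, 50.7 and 33.0 at 16 h, 11.8 in 24 h replicate 1, and 29.5 and 28.5 at 48 h. The trend did not pass (adjusted p = 0.103, exact permutation test). Apoe-5 (chr7:19695904-19696428), 3022 bp downstream, was called in both 16 h libraries at 58.3 and 59.7, in 48 h replicate 1 at 15.4 and in no other. Apoe-1 was called in 1 library.

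Apom encodes an apolipoprotein that carries sphingosine 1-phosphate (chr17:35128997-35132050, ENSMUSG00000024391, − strand). It had no region of its own. Both nearby regions, at chr17:35134740-35135013 (called in 11 libraries) and chr17:35135073-35135965 (called in all 14), had the TSS of Bag6 as their nearest, which lies 3128 bp from the Apom TSS. No peak covered the Apom TSS.

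**Figure D3:**
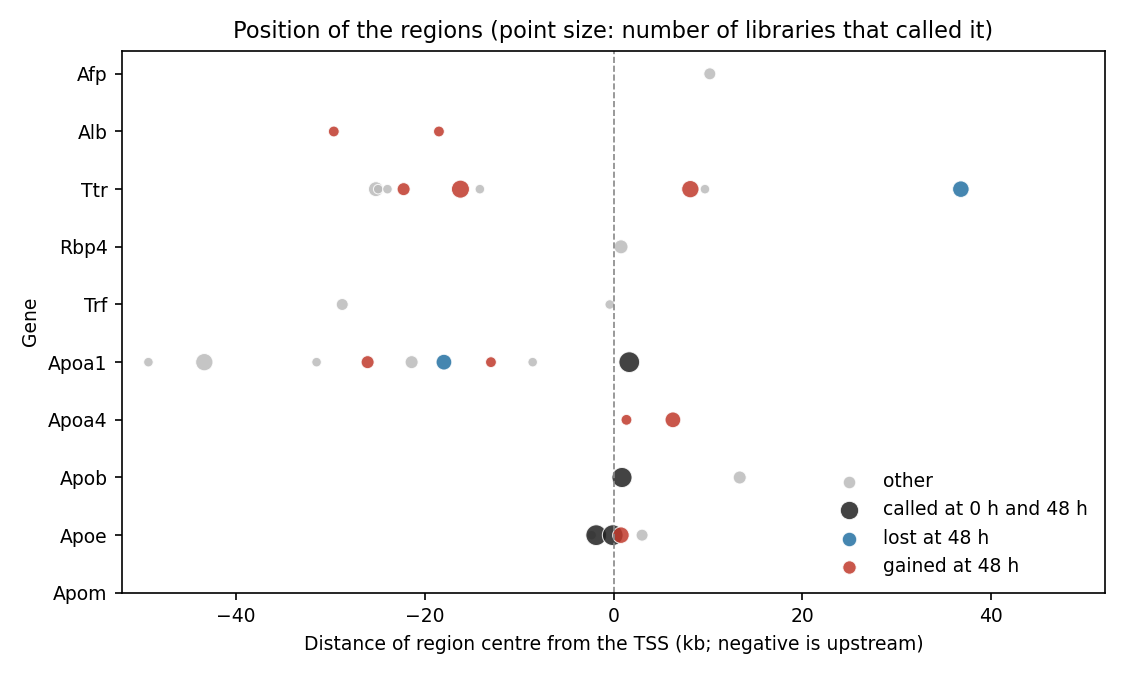
Distance of each region's centre from the TSS of its gene (kb, horizontal axis, negative upstream) for the 10 genes (vertical axis), with point size for the number of libraries that called it and colour for its class at 48 h against 0 h. The 10 gained regions (red) stand off the TSS, between 29612 bp upstream and 8133 bp downstream, and Apom has no point.

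By role, the albumin family had 2 regions in the comparison of 48 h with 0 h, both gained, and 0 of 3 tested rose. The 2 gained regions, called only at 48 h, had an adjusted p of 0.0541 in that test (exact permutation test). With the 50000 highest-scored peaks per library it was 0.0477. The carriers had 10 in that comparison, of which 3 were gained and 1 was lost, all near Ttr, and 3 of 7 tested rose and 1 fell. The apolipoproteins had 17, of which 5 were gained, 1 was lost and 4 were shared, and 2 of 10 tested rose. Over all regions 19.5% were gained, 22.3% lost and 25.1% shared, and 12.1% of those tested rose, and with so few regions per role nothing is read from the differences.

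Most of the regions lay away from the promoters, at shares near those of all regions assigned to a gene. Of the 33 regions 5 (15.2%) had their centre within 1 kb of the TSS, 9 (27.3%) between 1 and 10 kb and 19 (57.6%) beyond 10 kb, where the shares of all 84402 regions assigned to a gene by the same rule were 19.4%, 27.8% and 52.8%. The median distance was 13359 bp, against 11115 bp, and the median width 466 bp, against 490 bp. A single-library call was made for 9 regions (27.3%), against 17.9% of all regions.

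FOXA letters were found in 4 of the 10 gained windows (40.0%, 95% Wilson interval 16.8 to 68.7), at Alb-2, Ttr-5, Apoa1-4 and Apoe-4, and in 12.1% of all gained windows. In the 23 other plasma protein regions 1 window held them (4.35%), that of Apoe-2, against 7.37% of all windows. GATA letters were found in 5 of the 10 gained windows (50.0%, 23.7 to 76.3) and in 57.9% of all gained windows. Of all 33 windows 13 held them (39.4%), against 35.5% of all windows. Counted over whole regions the order reversed, with 15 of 33 (45.5%) against 57.8% of all regions. The HNF1 letters were in 0 of 33 windows, with a Wilson upper bound of 10.4%, and in 6.07% of all windows. Over whole regions, 3 of 33 held HNF1 letters (9.09%), Alb-2, Ttr-5 and Apoe-4, against 13.5% of all regions. HNF4 letters were in 1 window, that of Apoa4-1 printed above, and in 0.828% of all windows. The intervals cover counting error only, and regions of a gene are not independent samples.

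Other gene groups were counted by the same rule. Over all regions 19.5% were gained and 22.3% lost, and of those tested 12.1% rose and 12.3% fell. For 20 other plasma protein genes, 11 of 38 regions were gained (28.9%), and 6 rose and 1 fell of 30 tested. Ambp, Plg and C3, which encode a protease inhibitor precursor, plasminogen and a complement protein, had 3 gained regions each, while Apoa2, Fgb, Serpina1a, Vtn and Itih2 had no region. For 12 transcription factors known to act at such genes, 45 of 102 regions were gained (44.1%), and 29 rose and 5 fell of 95 tested. Counted over all regions of a gene, Foxa2 gained 7 of 18 and Hnf4a 6 of 13, while Foxa1 gained 0 of 7 and Nr1h4 0 of 6. For lipoprotein assembly and handling genes, 11 of 49 regions were gained (22.4%), and 3 rose and 2 fell of 39 tested. Genes beside the plasma protein genes in their clusters gained 2 of 11 regions (18.2%). Hepatocyte enzyme genes gained 5 of 10 regions and neural genes 5 of 40 (12.5%). Of 33 tested regions near neural genes 4 rose (12.1%) and 7 fell (21.2%). The share lost was 13.2% for the other plasma protein genes, 12.7% for the factors and 10.2% for the lipoprotein genes. It was 27.3% for the cluster neighbours, 20.0% for the hepatocyte enzyme genes and 22.5% for the neural genes. Gata4, Gata6 and Foxa2 stand in both the factor list and the PrE list.

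**Figure D4:**
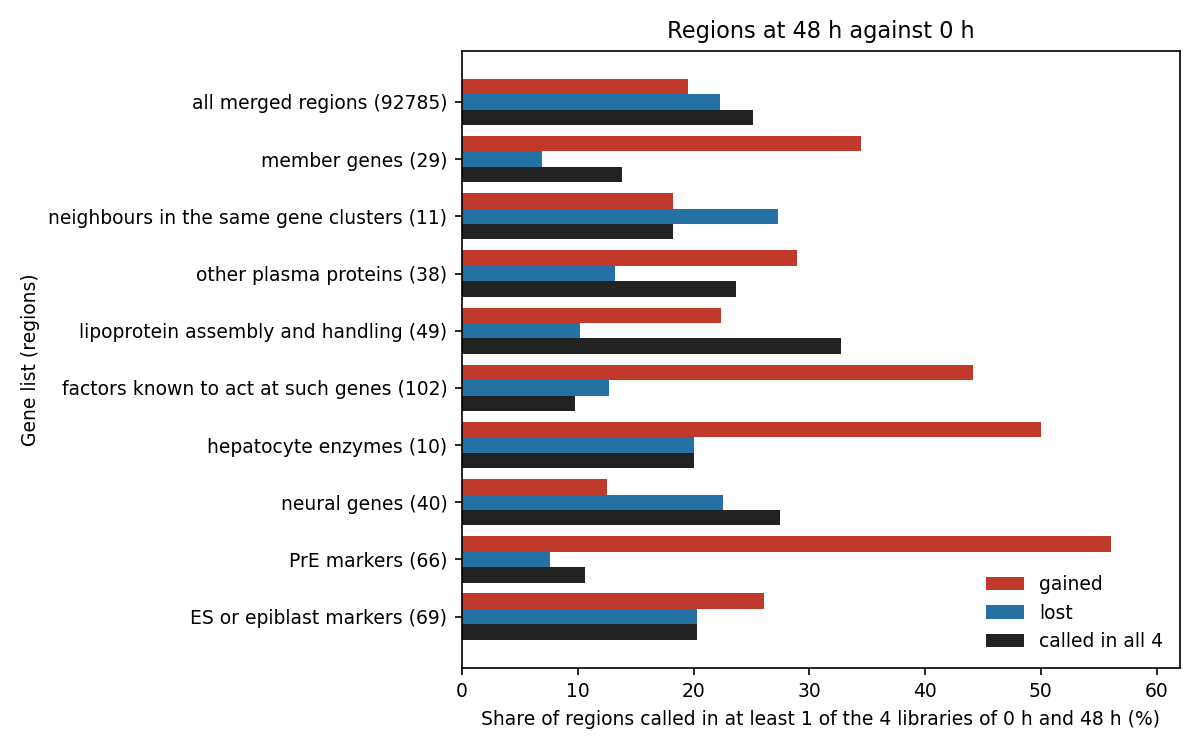
Share of regions (%, horizontal axis) that were gained, lost or called in all 4 libraries at 48 h against 0 h, for all merged regions, the plasma protein genes and 8 other gene lists (vertical axis, number of regions in brackets). The plasma protein genes have 34.5% gained, above all merged regions at 19.5% and below the PrE markers at 56.1%.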

How the data were processed

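ATAC-seq marks open chromatin by transposase insertion and does not measure transcription. Per the study's methods, the authors ran the ENCODE ATAC-seq pipeline, and the submitters' processing notes name mm10 (GRCm38) and deepTools. The authors deposited 1 filtered peak list per library, replicates not pooled, with a peak score whose scale is not stated. The read count comparison of 48 h with 0 h that the study describes could not be run on peak lists.

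Peaks overlapping by at least 1 bp were merged over the 14 libraries, and each region was assigned to the nearest GENCODE vM21 protein-coding TSS from its centre within 50 kb. The trend test, tested on simulated data, covered regions called in 2 to 12 libraries. Python 3.11.15, numpy 2.4.6 and pandas 2.3.3 were used. The genes and lists were chosen with earlier results of these data known. All 10 genes are named, and regions were described singly when nearest the TSS within 1 kb, gained, lost or past the trend threshold, or when few enough to name. Alternatives changed peak stringency, overlap, distance, annotation, the rule for a gain, the libraries included and a replicate block. By replicate number, the correlation of deviations was -0.0152 to 0.0124 over 21 pairs, which does not exclude a replicate effect on some regions. Replicate 2 had more peaks than replicate 1 at every time point, at 48 h with 58450 against 55588.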

Additional observations from a re-analysis of the deposited data

How the results depend on the processing

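The limits are those of 2 libraries per time point and of peak calls without read counts. In the trend test 5 regions rose and 1 fell. With a replicate block 4 rose and 1 fell, where 9.49% of all regions rose and 9.13% fell. Apoa1-4 lost its call there (adjusted p = 0.0555, exact permutation test). Without the 0 h libraries 1 rose (Ttr-4, against 7.69% of all regions), and the adjusted p was 0.0622 for Ttr-5, 0.104 for Ttr-7, 0.0622 for Apoa1-4 and 0.0605 for Apoa4-2. With the 50000 highest-scored peaks per library 9 rose, gains numbered 3, 1 and 2 at 4, 8 and 24 h, and the mean number of regions called from 0 to 48 h was 7.5, 6.5, 10.5, 8.0, 9.0, 8.0 and 15.5. When a peak had to cover 50% of the region, gains were 1 at 2 h and 1 at 8 h, and the means for 0, 2, 4, 8, 16 and 48 h were 7.5, 7.5, 11.0, 8.5, 9.0 and 17.5 regions. Within 10 kb of the TSS 2 rose, 0 fell, 4 were gained and 0 lost, and within 100 kb 4 were lost. With the TSSs of all annotated genes 2 rose, 0 fell, 6 were gained and 1 was lost. Alternatives chosen after seeing the data used the TSSs of all transcripts (1 lost) or left out Ttr (2 rose, 0 fell, 1 lost). Counting a gain from 1 library, 18 were gained and 5 lost at 48 h, and gains from 2 to 24 h were 3, 8, 6, 8 and 8. For the changes in this paragraph the cause was not tested, beyond the fewer libraries, peaks or regions that an alternative leaves by construction. Leaving out libraries gave 0 to 9 that rose, 0 to 1 that fell, 10 to 15 gained, 2 to 4 lost and 4 to 5 shared at 48 h. The lowest counts of regions that rose or fell came from leaving out all 7 libraries of one replicate number. That leaves 1 library per time point, where the exact permutation test cannot give any region a p under 0.05. Those lowest counts were thus fixed in advance and say nothing about the trends. The highest count that rose came from leaving out 0 h replicate 1 or 0 h replicate 2, where the p of regions called only at 48 h is smaller by construction. The means ranged from 8 to 9 for both 0 h and 2 h, from 12 to 15 for 4 h, from 10 to 12 for 8 h, from 10 to 11 for 16 h, from 11 to 12 for 24 h and from 19 to 20 for 48 h. Over 208 trends of single regions under an alternative, 180 kept their side of the threshold, 13 passed it, 15 lost it and 0 reversed, with Apoe-4 passing without 24 h replicate 2 (adjusted p = 0.0443, exact permutation test).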
